A study of Gallus gallus with 6 samples.

Results

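GPX3 (glutathione peroxidase 3, ENSGALG00000004521) and SMOX (spermine oxidase, ENSGALG00000015977) were followed in the magnum during lay and out of lay. They were taken by their Ensembl identifiers as 2 of the 19152 genes of the count table, for their roles in removing and producing hydrogen peroxide. The magnum is the segment of the chicken oviduct that secretes the egg white. The hens were labelled as Hy-line, and the methods of the study name the line as Hy-Line white. Magnum RNA was sequenced from 3 laying hens of 35 weeks, taken while the egg was in the magnum, and from 3 non-laying hens aged between 35 and 60 weeks. Each hen gave 1 library. All hens had the same strain and no treatment, the non-laying hens were drawn from several flocks, and their oviduct was atrophied at necropsy. Age, flock and laying state thus cannot be told apart. In pieces of whole tissue, fewer cells of a type and less RNA per cell cannot be told apart either.

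GPX3 is a secreted peroxidase with selenocysteine in its active site. It uses glutathione to reduce hydrogen peroxide and lipid hydroperoxides outside the cell. SMOX is a flavin enzyme that oxidises the polyamine spermine to spermidine and releases hydrogen peroxide and an aminoaldehyde. In the laying magnum, tubular gland cells make very large amounts of secreted protein, and the oxidative folding of such protein is a known source of hydrogen peroxide in secretory cells.

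In the genome build of the deposited table (Galgal 5.0), GPX3 lies on chromosome 13 from 13057890 to 13059882, a protein-coding gene of 1993 bases with 1023 bases of exons. SMOX lies on chromosome 4 from 88971253 to 89015690, a protein-coding gene of 44438 bases with 2086 bases of exons. GPX3 was also a target of the study's qPCR. By qPCR the paper reports more GPX3 in laying hens with the egg in the uterus than in non-laying hens or laying hens with the egg in the magnum. For the latter, the state sequenced here, it names no qPCR difference from non-laying hens. From the sequencing of that state, the paper does list GPX3 among the genes most raised in laying over non-laying hens. The GPX3 primers, designed across an exon junction, are shown because they define the GPX3 transcript that the study assayed besides the whole gene counted here.
GPX3 forward: gagggagaaggtgaaatgct
GPX3 reverse: cccagctcattttgtagtgc

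The libraries held 18840068 to 25763750 counts on genes. A few genes filled the laying libraries: the 20 genes with the highest mean count took between 74.1% (laying hen 2, 95% Wilson interval 74.079% to 74.113%) and 80.6% (laying hen 1, 80.537% to 80.568%) of the counts. In the non-laying libraries they took between 9.57% (hen 3, 9.5595% to 9.5861%) and 56.0% (hen 2, 55.957% to 55.996%). Such intervals cover counting error only. TMM scaling (trimmed mean of M-values), which sets the bulk of genes level, gave factors of 0.445 to 0.622 in laying hens and 1.19 to 2.94 in non-laying hens, and made the scaled library size 2.95 times as large in non-laying hens on average. Without scaling, the median log2 fold change of the 12499 genes tested, laying over non-laying, was -1.80, against 0.0035 after TMM. Every value of GPX3 and SMOX is therefore given on a named denominator.

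Only names listed in the authors' table of differentially expressed genes or its supplementary version could be tied to identifiers. The marker lists are thus partial and hold only genes that the authors had called different between these same groups. A difference between the groups in these markers is therefore not independent evidence. No epithelium, smooth muscle, endothelium or erythroid marker could be named. The summed RPKM (reads per kilobase of exon, relative to the total of the library) of 3 of 7 fibroblast and matrix markers (COL3A1, LUM, FBLN1) was 34.7 to 49.4 in laying and 400.02 to 953 in non-laying hens. That of 6 of 8 proliferation markers was 4.43 to 4.58 against 86.1 to 183. The leukocyte marker PTPRC, 1 of 9 listed, was at 0.355 to 0.751 against 3.63 to 21.7 RPKM, and the cilia gene CCDC39, 1 of 10, at 0.419 to 1.85 against 8.37 to 30.9 RPKM. Of 14 gland and egg-white markers, AVD and ORM1 summed to 7133 to 16015 in laying and to 2867 to 7849 RPKM in non-laying hens, so their ranges overlapped. After TMM scaling their summed RPKM was 11893 to 35994 in laying and 975.3 to 6585.4 in non-laying hens, which did not overlap, in the same direction as GPX3 and SMOX. The sum hides how each gene behaved: only 1 of the 2 was called higher in laying hens after TMM. The other lists with a named gene did not overlap on either scale, for genes selected in this way. After TMM scaling the fibroblast and matrix sum was 77.4 to 79.5 RPKM in laying and 295 to 554 in non-laying hens. That of the proliferation markers was 7.37 to 10.2 against 29.3 to 134. PTPRC was then at 0.797 to 1.25 against 2.61 to 7.37, and CCDC39 at 0.942 to 3.09 against 5.76 to 10.5. None of these markers summed to 0 in any library. Their part in the results for GPX3 and SMOX was not tested.

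GPX3 was an abundant transcript of the magnum in both states and higher in laying hens. Its counts were 30692, 34708 and 17595 in laying hens 1, 2 and 3, against 8320, 11360 and 13040 in non-laying hens 1, 2 and 3. Every laying hen was thus above every non-laying hen before any scaling, and laying hen 3 was the lowest of its group. The share of all genes for which this holds in raw counts was not computed.

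After TMM scaling, GPX3 was at 2751, 2167 and 1176 CPM (counts-per-million, relative to the scaled library) in laying hens 1, 2 and 3. In non-laying hens 1, 2 and 3 it was at 213, 383 and 235 CPM. The means were 2032 ± 796 CPM (SD, n = 3) and 277 ± 92.2 CPM (SD, n = 3). The groups did not overlap, the 9 pairs of a laying and a non-laying hen giving ratios from 3.07 to 12.9. Between hens of 1 group GPX3 varied by 2.34 times in laying and 1.80 times in non-laying hens.

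The log2 fold change of GPX3 was 2.88 (standard error 0.48), which is 7.34-fold, and the p from the quasi-likelihood test of edgeR was 0.0155 once adjusted over all genes tested by the Benjamini-Hochberg method. It passed both thresholds set by the study, 3-fold and an adjusted p of 0.05. Both genes were singled out in the study because they were differentially expressed in these libraries, so their p-values are not independent evidence. The call was lost without laying hen 1 (log2 fold change 2.60, adjusted p = 0.0783) and without laying hen 2 (2.83, adjusted p = 0.0736), both by edgeR. It was also lost without non-laying hen 1 (2.72, adjusted p = 0.0651 by edgeR). Most genes lost their call in these fits: 20, 16 and 285 genes were called over the whole table, in that order, against 623 with all hens.

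With total counts as the denominator, the difference in GPX3 was smaller. Laying hens 1, 2 and 3 were at 1224, 1347 and 705 CPM of total counts and non-laying hens 1, 2 and 3 at 366, 456 and 692. The lowest laying and the highest non-laying hen were 1.02 times apart, and their exact Poisson intervals, 695 to 716 and 680 to 704 CPM, overlapped. On this denominator the log2 fold change was 1.11 (standard error 0.47, adjusted p = 0.0317 by edgeR), or 2.16-fold, under the 3-fold threshold.

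SMOX was expressed at a much lower level, and its counts were close in all hens. They were 806, 1077 and 1063 in laying hens 1, 2 and 3, against 852, 766 and 810 in non-laying hens 1, 2 and 3. The ranges overlapped, because laying hen 1 was below non-laying hens 1 and 3. The exact Poisson interval of the lowest count, 766, was 713 to 822, and that of the highest, 1077, was 1014 to 1143.

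Relative to total counts SMOX was at 32.1, 41.8 and 42.6 CPM in laying hens 1, 2 and 3. In non-laying hens 1, 2 and 3 it was at 37.5, 30.7 and 43.0 CPM. The means of 38.9 ± 5.82 and 37.1 ± 6.14 CPM (SD, n = 3 each) differed by less than the spread between hens, and the laying hen was higher in 5 of 9 pairs. The log2 fold change on this denominator was 0.068 (standard error 0.44, adjusted p = 0.883 by edgeR).

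After TMM scaling SMOX was higher in laying hens, at 72.3, 67.3 and 71.0 CPM in laying hens 1, 2 and 3 against 21.8, 25.8 and 14.6 CPM in non-laying hens 1, 2 and 3. The groups did not overlap, and the 3 laying hens lay within 1.07 times of each other. The non-laying hens spread over 1.76 times, with hen 3, the library with the largest TMM factor, the lowest. The means were 70.2 ± 2.61 and 20.7 ± 5.66 CPM (SD, n = 3 each).

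The log2 fold change of SMOX after TMM was 1.76 (standard error 0.25, adjusted p = 0.0117 by edgeR), or 3.39-fold, so SMOX passed the 3-fold threshold by a small margin. Without non-laying hen 3 it was 2.97-fold and no longer called (log2 fold change 1.57, adjusted p = 0.0049 by edgeR). Without laying hen 1 or 2 the log2 fold change was 1.74 or 1.79, but the adjusted p was 0.0697 or 0.0607 by edgeR. Only 20 or 16 genes of the whole table were called without laying hen 1 or 2, against 623 with all hens.

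**Figure D1:**
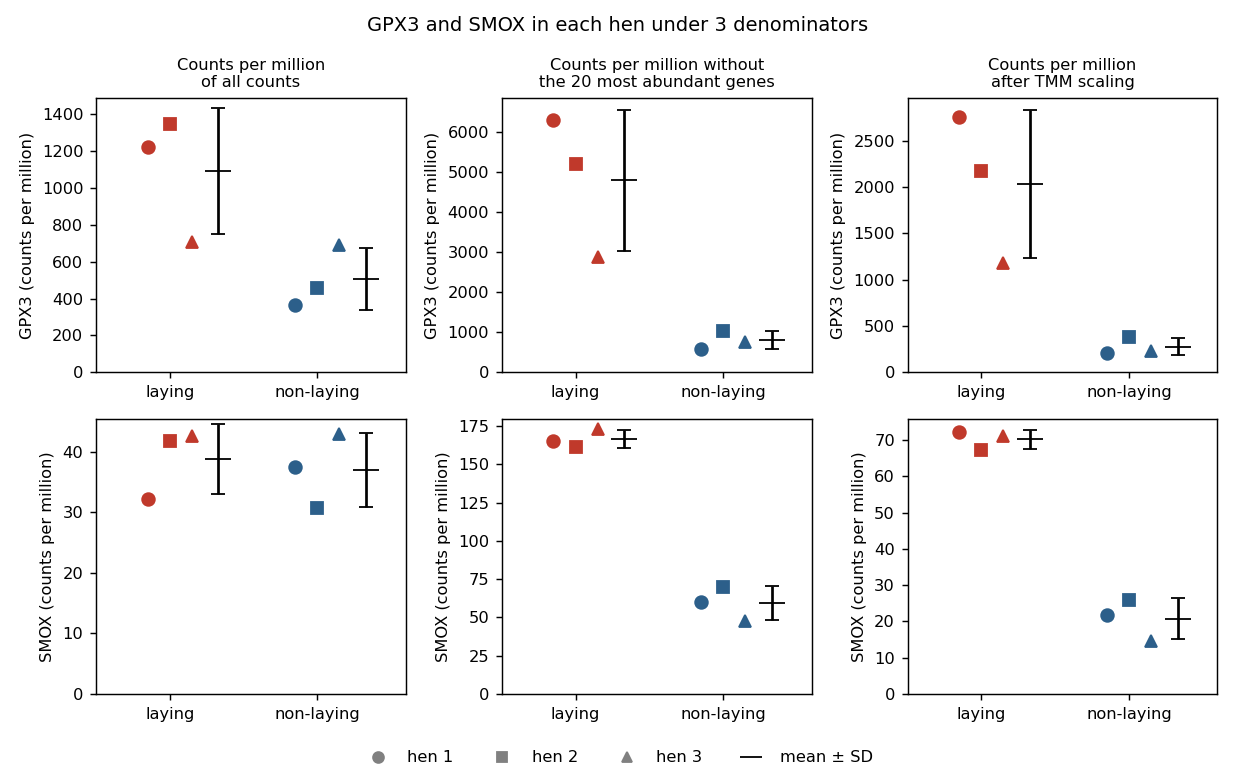
Level of GPX3 (top) and SMOX (bottom) in each hen in CPM, with all counts, the counts outside the 20 most abundant genes or the TMM-scaled library as denominator; symbols are hens and the black bar is the mean ± SD of 3 hens. SMOX overlaps between the groups in CPM of total counts (30.7 to 43.0) and is separate after TMM (67.3 to 72.3 against 14.6 to 25.8).

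The 20 most abundant genes were also left out of the denominator, with no other scaling, which raises every CPM value. SMOX was then at 165, 161 and 173 CPM in laying hens 1, 2 and 3, against 60.3, 69.8 and 47.5 CPM in non-laying hens 1, 2 and 3. These groups did not overlap, and the log2 fold change was 1.49 (standard error 0.21, adjusted p = 0.0097 by edgeR), or 2.81-fold, just under the threshold. GPX3 was at 6295, 5201 and 2866 CPM in laying hens, against 588, 1036 and 765 CPM in non-laying hens on this denominator. Its log2 fold change was 2.59 (standard error 0.42, adjusted p = 0.0152 by edgeR), past both thresholds. On this denominator 96 of the 12499 genes tested were called higher in laying hens. The share of all genes whose groups did not overlap was not computed on it.

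GPX3 and SMOX thus both passed as higher in laying hens after TMM, where 1.28% of all genes tested did so. Without scaling neither passed, where 0.376% of all genes tested were called higher. All laying hens were above all non-laying hens after TMM for both genes, as for 15.1% of the genes tested. In CPM of total counts this held for GPX3 but not for SMOX, and for 0.464% of the genes tested.

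A change of library factors shifts the log2 fold changes of all genes by nearly the same amount, so the distance of a gene from the median is nearly fixed under it. GPX3 lay 2.87 above the median log2 fold change of all genes tested after TMM and 2.91 above it without scaling, and SMOX lay 1.76 and 1.87 above it. With limma on log2(RPKM + 1), where a constant is added to every value, GPX3 lay 2.46 and SMOX 1.41 above the median. With no filter on low values they lay 2.08 and 1.04 above it. With a constant of 0.1 and the filter they lay 2.78 and 1.74 above it. The log2 fold changes of both genes hardly differed between the constants of 1 and 0.1, while the median was -1.35 and -1.67. In the order of log2 fold changes after TMM, GPX3 was gene 64 and SMOX gene 251 of 12499. Of the 160 genes called higher after TMM, 113 overlapped between the groups in CPM of total counts, as SMOX did. The shift of the median by itself moves genes called higher towards such an overlap.

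**Figure D2:**
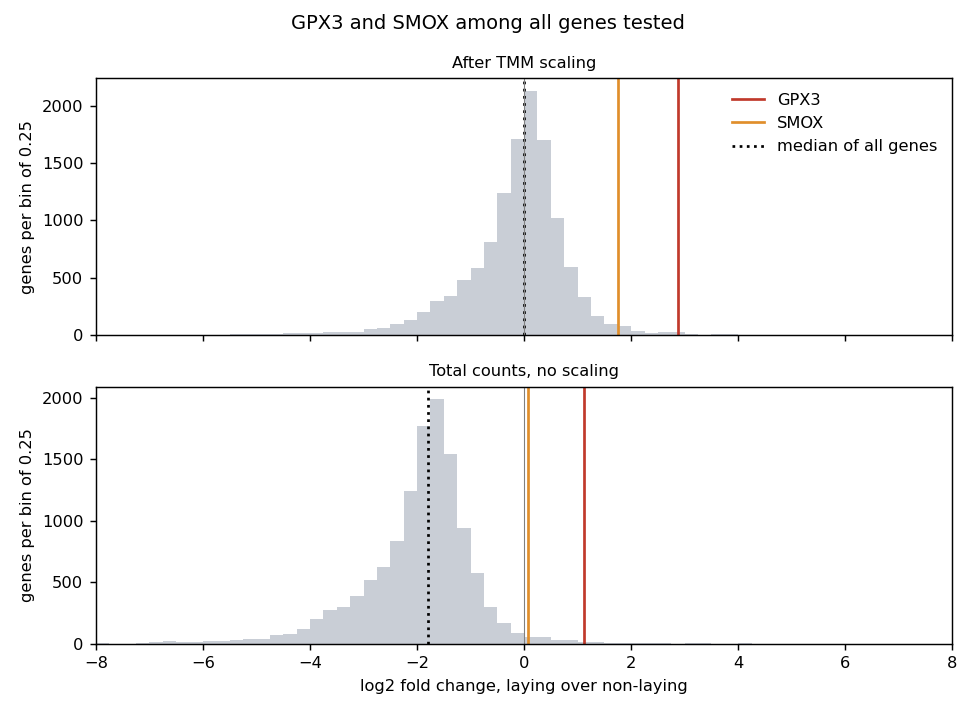
Number of genes in bins of 0.25 of the log2 fold change, laying over non-laying, for the 12499 genes tested, after TMM (top) and with total counts (bottom); lines mark GPX3, SMOX and the median gene. The median gene moves from 0.0035 to -1.80 between the panels, and SMOX moves with it from 1.76 to 0.068.

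**Figure D3:**
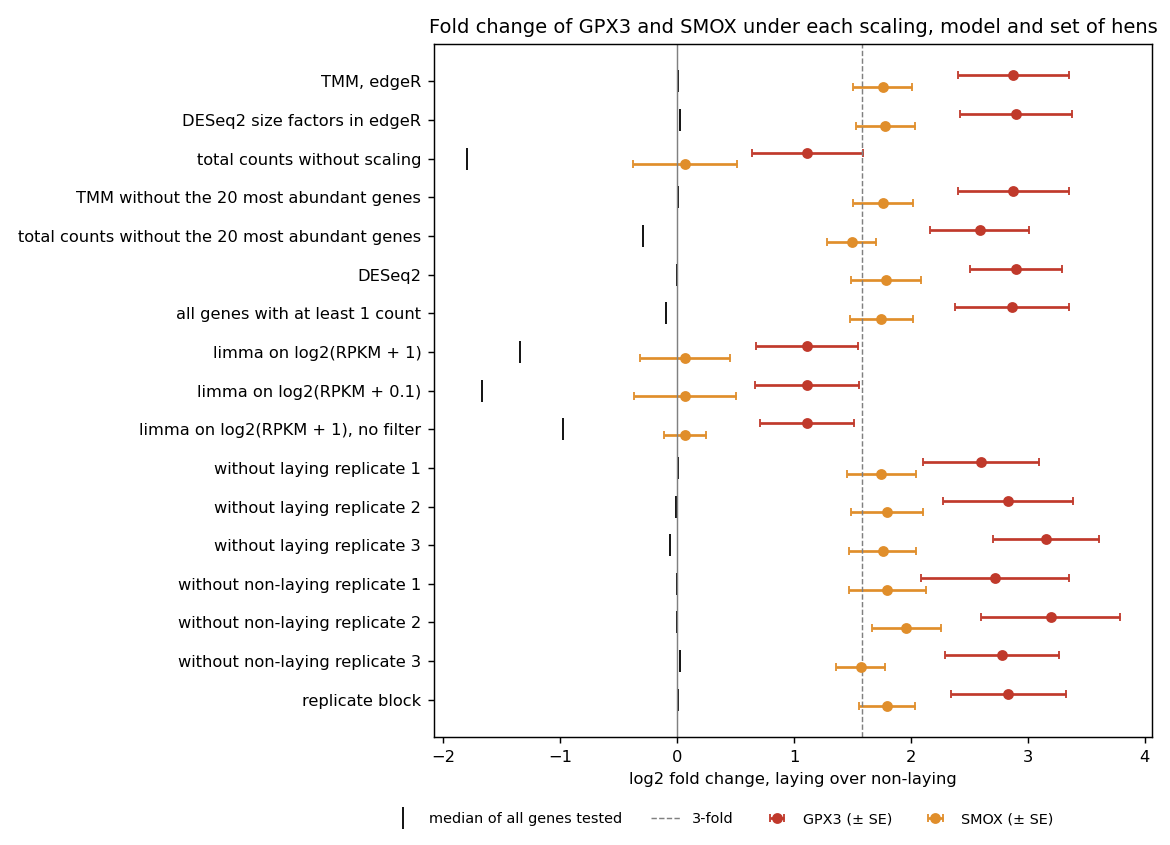
Log2 fold change ± SE of GPX3 and SMOX (x axis) under each scaling, model and set of hens (y axis), with the median of all genes tested as a tick and 3-fold as a dashed line. Both genes keep to the right of the median in every setting, and SMOX is near 0 with total counts (0.068) and with unscaled RPKM (0.066 to 0.069).

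Order within a library does not depend on the factor by which a library is scaled, but it does depend on the levels of all other genes. SMOX had 20.4 RPKM in laying hen 3 and 20.6 RPKM in non-laying hen 3, but ranked 1260 and 5405. By RPKM, GPX3 was the gene at rank 24, 25 and 41 in laying hens 1, 2 and 3, against at rank 182, 123 and 135 in non-laying hens 1, 2 and 3. It was thus within the highest 0.289% of detected genes in every laying hen and within the highest 1.18% in every non-laying hen. SMOX stood at rank 1351, 1361 and 1260 in laying hens, against at rank 4016, 3445 and 5405 in non-laying hens 1, 2 and 3. This was within the highest 9.78% of detected genes in laying hens and between 23.1% and 34.4% in non-laying hens. For both genes each laying hen ranked it higher than each non-laying hen, as for 14.5% of the genes tested (p = 0.1 by the exact permutation test, two-sided, which is the lowest p possible for 3 hens against 3).

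The ratio of GPX3 to SMOX within a hen is also free of the scaling. In RPKM, GPX3 was 77.6, 65.7 and 33.8 times the level of SMOX in laying hens 1, 2 and 3. The ratio was 19.9, 30.2 and 32.8 in non-laying hens 1, 2 and 3. The ratio was higher in each laying hen, but laying hen 3 lay beside the non-laying hens. The SMOX count was 1063 in laying hen 3 (exact Poisson interval 1000 to 1129) and 810 in non-laying hen 3 (755 to 868). An interval of the ratio was not computed, nor was the share of gene pairs with such a separation. The mean was 59.0 ± 22.7 against 27.7 ± 6.83 (SD, n = 3 each), a log2 difference of 1.04 (two-sided exact permutation test, p = 0.1). In these libraries the peroxide-removing enzyme was the more abundant transcript per length in every hen.

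**Figure D4:**
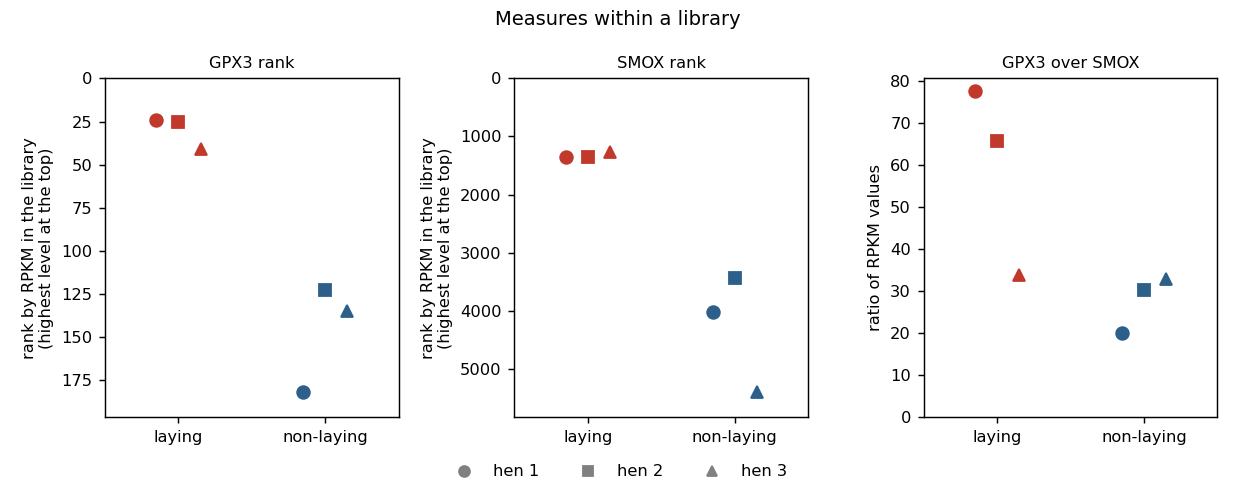
Rank of GPX3 and of SMOX by RPKM within each library (highest level at the top) and ratio of GPX3 to SMOX in RPKM, by group, with a symbol per hen. SMOX ranks between 1260 and 1361 in laying hens and between 3445 and 5405 in non-laying hens, and the ratio of laying hen 3 (33.8) lies next to that of non-laying hen 3 (32.8).

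The other enzymes of peroxide and polyamine metabolism could be followed only in part. Of 144 genes listed for peroxide removal, glutathione supply, superoxide removal, oxidases, polyamines, selenoproteins and NRF2 control, 6 could be tied to an identifier, GPX3 and SMOX included. All 6 came from the authors' lists of differentially expressed genes, so that 6 of 6 passing as higher in laying hens says nothing of the pathway. No superoxide dismutase and no oxidase other than SMOX was among them.

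Of the genes that supply glutathione, 2 of 17 were named. SLC7A11, the cystine importer that feeds glutathione synthesis, had 574, 1059 and 223 counts in laying hens 1, 2 and 3, against 158, 165 and 32 in non-laying hens 1, 2 and 3. Its log2 fold change was 3.72 (standard error 0.82, adjusted p = 0.0328 by edgeR). GGT1, a cell-surface enzyme that cleaves extracellular glutathione, had 481, 969 and 479 counts in laying hens, against 204, 132 and 59 in non-laying hens 1, 2 and 3. The log2 fold change of GGT1 was 3.67 (standard error 0.56, adjusted p = 0.013 by edgeR). In CPM of total counts neither gene overlapped between the groups, and all laying hens were above all non-laying hens for 0.464% of the genes tested. Both also passed without scaling, at 2.25 and 2.12 on the log2 scale, where 0.376% of all genes tested were called higher.

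SRXN1 (sulfiredoxin, which repairs over-oxidised peroxiredoxins) and MAFF (a small MAF protein that can pair with NRF2 on DNA) were called after TMM and not without scaling, like SMOX. SRXN1 had only 47, 50 and 44 counts in laying hens, against 31, 35 and 35 in non-laying hens 1, 2 and 3. These counts did not overlap, but in CPM of total counts the groups did. SRXN1 had a log2 fold change of 1.98 after TMM (standard error 0.42, adjusted p = 0.0294 by edgeR) but 0.27 without scaling (adjusted p = 0.735). MAFF had 353, 630 and 222 counts in laying hens, against 280, 157 and 388 in non-laying hens 1, 2 and 3, which overlapped. Its log2 fold change was 2.14 after TMM (adjusted p = 0.0168 by edgeR) and 0.28 without scaling (adjusted p = 0.638).

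A further 4 genes whose description in the deposited table names a peroxidase or a redox role were added after that table had been seen. That table lists only genes the authors had called different, so that a difference in each of the 4 was built in by this choice. The extracellular matrix peroxidase PXDN, which uses hydrogen peroxide in the cross-linking of collagen IV, and its relative PXDNL went the other way. PXDN had 24, 53 and 48 counts in laying hens, against 376, 510 and 462 in non-laying hens 1, 2 and 3, which did not overlap. After TMM the groups were closer, at 2.15 to 3.31 CPM in laying and 8.34 to 17.2 CPM in non-laying hens. The share of all genes whose raw counts were lower in every laying hen was not computed. The log2 fold change of PXDN was -2.01 after TMM (adjusted p = 0.0199 by edgeR) and -3.63 without scaling (adjusted p = 7.14e-05 by edgeR). Of the 12499 genes tested, 463 were called lower in laying hens after TMM. Without scaling 7849 were called lower and the median log2 fold change was -1.80, so a call of lower is common there. PXDNL had 12, 25 and 5 counts in laying hens, against 349, 154 and 229 in non-laying hens 1, 2 and 3, a log2 fold change of -2.61 after TMM (adjusted p = 0.032 by edgeR). The fibroblast and matrix markers given above, also higher in non-laying hens, moved in the same direction as both. So did the proliferation, leukocyte and cilia markers, all named from the same lists of changed genes.

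NMRAL1, a sensor of NADPH, had 711, 1178 and 861 counts in laying hens, against 783, 488 and 1211 in non-laying hens 1, 2 and 3. Its log2 fold change was 1.74 after TMM (adjusted p = 0.0091 by edgeR) but -0.12 without scaling (adjusted p = 0.803). For OSGIN2 the values were 1.93 (adjusted p = 0.0214 by edgeR) and 0.15 (adjusted p = 0.766). Their counts overlapped between the groups, as those of SMOX did.

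**Figure D5:**
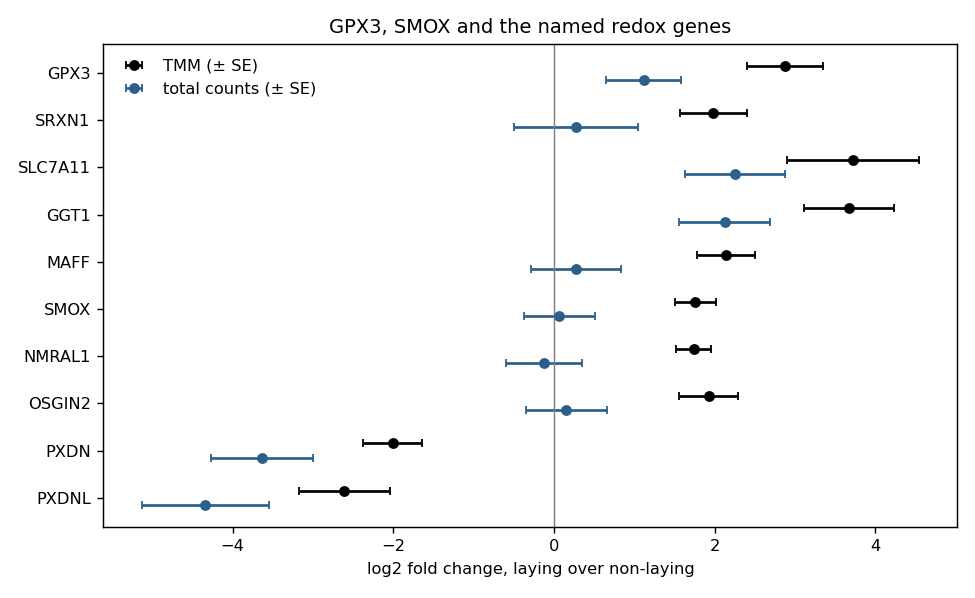
Log2 fold change ± SE, laying over non-laying, of GPX3, SMOX and the 8 further named redox genes, after TMM (black) and with total counts (blue). SLC7A11 (3.72 and 2.25) and GGT1 (3.67 and 2.12) stay high on both, SMOX, SRXN1, MAFF, NMRAL1 and OSGIN2 are near 0 with total counts, and PXDN and PXDNL are negative on both.

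The genes with the pattern most like that of each member were sought among 371 named genes with a mean of at least 1 CPM. The order was by Pearson's r of log2 CPM after TMM over the 6 libraries, as a description. All of these names come from the authors' lists of differentially expressed genes, and the points share the scaling of their library. For GPX3 they were MELTF (melanotransferrin, r = 0.995), CGN (cingulin of tight junctions, r = 0.989), ALDH1L2 (a mitochondrial folate enzyme, r = 0.987), ACCSL (r = 0.987) and NIPAL4 (r = 0.987). Among 12498 genes, named or not, they were at ranks 3, 15, 24, 25 and 26 by r. In CPM of total counts these had an r of 0.872 to 0.969 with GPX3. A gene could pass the mean of 1 CPM through the laying hens alone. NIPAL4 had means of 4.53 CPM in laying and 0.153 CPM in non-laying hens after TMM. SLC26A4, given below for SMOX, had 10.8 and 0.784 CPM. The other genes given here for GPX3 and SMOX had means above 1 CPM in both groups.

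For SMOX the closest named genes were PHGDH, the first enzyme of serine synthesis (r = 0.992), the antimicrobial peptide gene AvBD11 (r = 0.991), EFCAB4B (r = 0.987), the serine enzyme PSPH (r = 0.985) and the anion exchanger SLC26A4 (r = 0.982). Among 12498 genes, named or not, they were only at ranks 12, 13, 24, 34 and 47 by r. In CPM of total counts their r with SMOX was between -0.05 and 0.355. The r of SMOX with these genes was thus high after TMM, by which they were picked, and low in CPM of total counts. That of GPX3 with its genes was high on both denominators, but these genes also had positive log2 fold changes on both. With total counts these were 0.860 to 3.33, against 1.11 for GPX3. Those of the SMOX genes were 0.321 to 2.50, against 0.068 for SMOX. As r was taken over both groups together, a shared difference between the groups raises it. No r within a group was computed. In CPM of total counts SMOX varied by only 1.40 times over all hens, which leaves little for an r to follow, against 3.68 times for GPX3.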

How the data were processed

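Total RNA of magnum tissue was made into stranded mRNA libraries and sequenced on a NextSeq 500. Cleaning with Prinseq was followed by alignment to Galgal 5.0 and counting per gene with Array Studio. The authors deposited the resulting expected counts without normalization, and these were rounded here; both members had whole counts in all 6 libraries. The RPKM values deposited by the authors are counts per kilobase of exon relative to the summed counts of the library, with no scaling between libraries. The authors' table of 540 genes was used for names and positions, and its descriptions for the choice of the 4 added redox genes. Its fold changes, p-values and group means, from DESeq2, were not used.

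Genes were filtered by filterByExpr (12499 of 19152 kept), scaled by TMM and tested two-sided, laying against non-laying, by the quasi-likelihood functions of edgeR 4.0.16 (R 4.3.3; glmQLFit, glmQLFTest), without covariates and adjusted over all genes tested. Standard errors were taken from the log2 fold change and F. Genes named in the text were GPX3, SMOX, the listed genes that were called, and the 5 most alike named genes of each, on log2(CPM + 0.5). The members and lists were chosen with earlier results of these data known. Alternatives were other scalings, DESeq2 1.42.0, no filter, limma 3.58.1 on log2(RPKM + 1) or log2(RPKM + 0.1), each hen left out, and a replicate block. The scripts were tested on simulated data. The depth was 18840068 to 25763750 counts per library, so that 1 count was 0.0181 to 0.0896 CPM after TMM. The planned ratios to TBP, GAPDH and ACTB and the promoter motifs were not run, because no table used here ties those genes to identifiers or gives sequences.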

Additional observations from a re-analysis of the deposited data

How the results depend on the processing

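After TMM, 623 genes were called, 25.7% of them higher in laying hens. With total counts, log2 fold changes were 1.11 for GPX3 and 0.068 for SMOX, neither called, and 7896 genes (0.595% higher) and 2 of the 6 listed genes were called. With limma on log2(RPKM + 1) they were 1.11 and 0.066, with 3845 genes and 2 listed genes called. With limma on log2(RPKM + 0.1) they were 1.11 and 0.069, with 7040 and 2. With limma on log2(RPKM + 1) and no filter they were 1.11 and 0.066, with 2632 and 1. None of these passed 3-fold for GPX3 or SMOX. RPKM carries no scaling between libraries, as total counts do not. Total counts without the 20 most abundant genes, an alternative chosen after seeing the data, put SMOX at 1.49, under 3-fold, with 12.8% of called genes higher. DESeq2 called 1005 genes, among them GPX3 and SMOX, and adjusted p alone 939. Leaving out each hen, the log2 fold change was 2.60 to 3.19 for GPX3 and 1.57 to 1.96 for SMOX, the count of genes 16 (without laying hen 2) to 639 (without non-laying hen 2), and that of listed genes 0 (without laying hen 1 or 2) to 6. Leaving out a hen also leaves fewer samples. The log2 ratio of GPX3 to SMOX ranged from 0.80 to 1.40 without 1 hen, and 3 hens against 3 could not pass 0.05. With the replicate block, 397 genes were called and GPX3 and SMOX kept their calls, at adjusted p of 0.0445 and 0.0321 by edgeR. The deviations of same-numbered hens correlated at 0.232, -0.068 and 0.052, and 3 of 6 hens correlated best with their own number. These values show no clear pairing by number, and 3 hens per group are too few to exclude one.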
